A study of Mus musculus with 8 samples.

Results

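The genes described here are 10 direct targets of the transcription factor p53, chosen by symbol: *Cdkn1a*, *Mdm2*, *Ccng1*, *Bax*, *Bbc3*, *Pmaip1*, *Trp53inp1*, *Phlda3*, *Eda2r* and *Aen*. All 10 were found among the 53465 genes of the count table, and all 10 were among the 14451 genes tested. The samples are heart ventricles of mouse embryos at embryonic day 9.5, in 4 libraries of genotype Nrg-1flox;Tie2-Cre (named KO 1 to KO 4 here) and 4 labelled WT (WT 1 to WT 4). In the mutant, a floxed allele of *Nrg1*, the neuregulin ligand that the endocardium presents to the myocardium, is deleted by Cre recombinase under the *Tie2* promoter, which is active in endothelial cells and also in blood cells that descend from them. The labels name no strain, litter, sex or pooling of embryos, nor whether the WT embryos carry Cre or a floxed allele, and p-values measure only the spread between these samples. The comparison asks whether p53 targets differ in the mutant ventricles, and it was made with and without KO 1.

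p53 is kept at a low protein level by the ubiquitin ligase MDM2 and is stabilized after DNA damage, nucleolar stress and other insults. It then binds near its target genes and raises their transcription. Part of the targets stop the cell cycle, part start mitochondrial apoptosis, and part restrain p53 itself, so that a full p53 response usually raises genes of each kind together. p53 protein is regulated mostly after translation, and its transcript level alone is not a readout of its activity.

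*Nrg1* served as a check of the genotype labels. Its level was 5.17, 4.27, 5.11 and 5.93 CPM (counts scaled to a common library total, after TMM normalization) in KO 1 to KO 4 and 11.9, 9.38, 9.94 and 11.7 CPM in WT 1 to WT 4. The mutants were all below WT, with a difference of -1.07 on the log2 scale (SE 0.14, adjusted p = 0.00268). Total counts per library ran from 11852372 to 14360323. Summed over 12 cardiomyocyte markers the level was 34842 to 38177 CPM in KO and 36990 to 39138 CPM in WT, with none of them at 0 in any library. Over 8 endocardial and endothelial markers it was 703 to 774 CPM in KO and 817 to 898 CPM in WT (1 lower in KO by the test below), and over 6 epicardial markers 198 to 331 CPM and 128 to 195 CPM (2 higher). Their part in the results that follow was not tested. The libraries differed in blood: all 10 erythroid markers were higher in KO, at 19390 to 67520 CPM summed in KO and 6560 to 7909 CPM in WT, with none at 0 in any library. KO 1 had the highest erythroid sum and KO 2 the lowest of the mutants. Of 8 macrophage and leukocyte markers 1 was abundant enough to test (*Csf1r*, higher in KO), and the 8 summed to 7.89 to 14.4 CPM in KO and 3.45 to 5.66 CPM in WT, with *Adgre1* at 0 counts in every WT library. In a bulk sample, a change in the number of cells of a type cannot be told from a change in RNA per cell. KO 1 stood apart from the other mutants: sample quality weights estimated by limma gave it 0.163, against 0.711 to 1.92 for the other 7 libraries.

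The 10 genes did not move in a common direction. With the adjusted p of edgeR's quasi-likelihood test under 0.05, *Cdkn1a* and *Bax* were higher in the mutant and *Trp53inp1* was lower, 3 of 10 genes, where 8.62% of all genes tested passed (5.11% higher and 3.5% lower). *Mdm2*, the feedback inhibitor whose transcription is a classical readout of p53, had a fold of 0.969. The median log2 fold change of the 10 genes was 0.14, against 0.00 over all genes tested (-0.0014 before rounding), and without KO 1 it was 0.083 against -0.0076. In 5 of the 10 genes the KO and WT values did not overlap, 3 of them with KO above WT and 2 with WT above KO, and such separation was seen in 19.0% of all genes tested. With another library left out, 3 passed without KO 2, 2 without KO 3, and 1 without KO 4 or without any of WT 1 to WT 4, *Bax* in each case. Over all genes these fits called 9.53% without KO 2, 5.38% without KO 3, 4.45% without KO 4 and 3.48% to 4.81% without 1 of the WT libraries, so the counts fell along with the share over all genes. Without KO 1, 5 genes passed, *Cdkn1a*, *Bax* and *Bbc3* higher and *Ccng1* and *Trp53inp1* lower, where 17.2% of all genes did (9.35% higher and 7.89% lower).

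**Figure D1:**
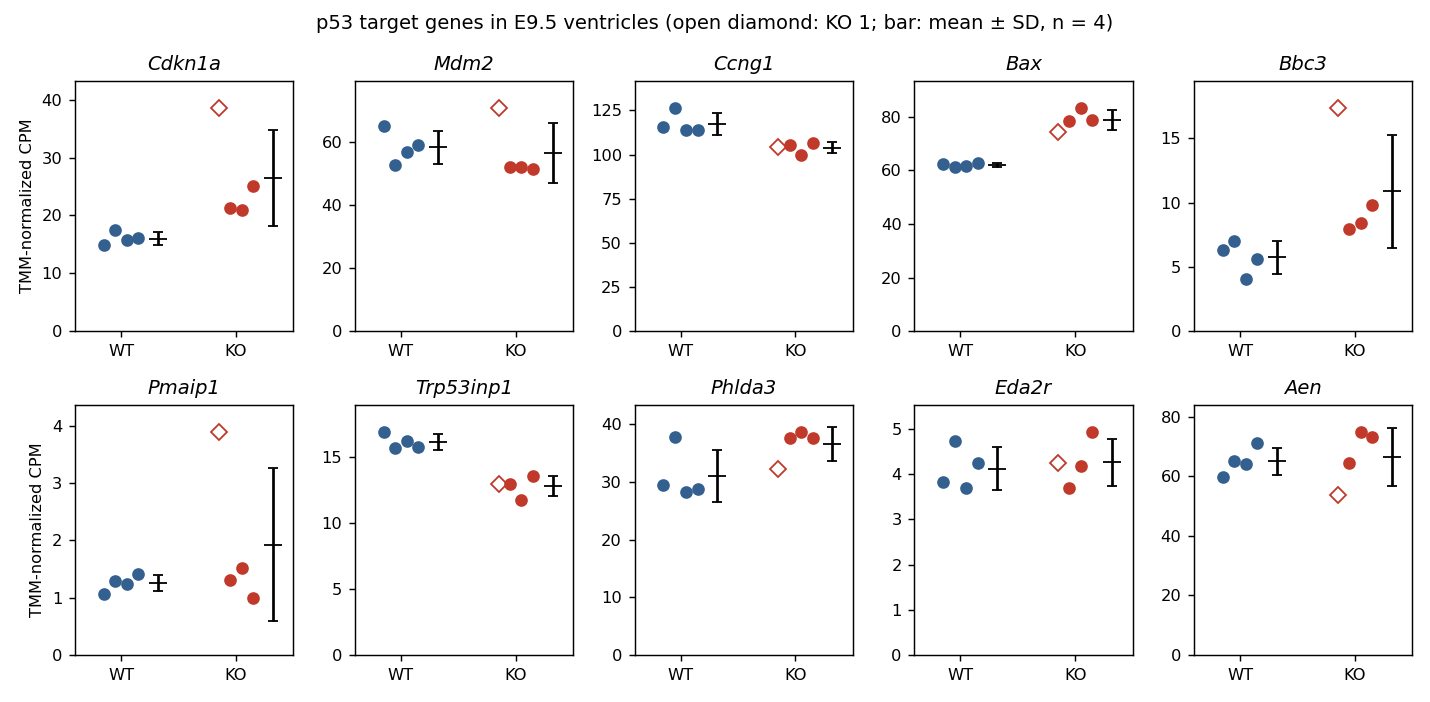
Normalized level of each of the 10 p53 target genes in every library. The vertical axes give TMM-normalized CPM from 0, circles are libraries, the open diamond is KO 1, and bars show the mean ± SD of 4 libraries. Every KO value lies above every WT value for *Cdkn1a*, *Bax* and *Bbc3*, and below for *Ccng1* and *Trp53inp1*.

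The promoter sequences show how the genes stand to the p53 motif, a decamer that p53 binds in pairs. RefSeq promoter windows of GRCm38.p6, from 250 bases before to 50 bases after a transcription start, were found for 8 of the 10 genes (12 windows, since *Cdkn1a*, *Bbc3* and *Aen* have several starts), and not for *Trp53inp1* or *Pmaip1*. Both strands were searched for the p53 consensus decamer, which reads the same on either strand, and for 2 such decamers that lie 0 to 13 bases apart. The decamer was present in 8.36% of 32851 windows of all genes and the pair in 0.073% (24 windows). Of the 8 genes, 5 had a decamer in at least 1 window. This count is per gene and the share above is per window, so the 2 cannot be compared directly. The windows of these 5 genes are shown because they include the gene with the pair (*Cdkn1a*), the gene whose call held in each fit that left out a library (*Bax*), a gene whose KO values all lay below WT (*Ccng1*) and genes whose groups overlapped (*Mdm2* and *Aen*). Decamers are in capitals.

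Cdkn1a, chr17:29090729-29091028, plus strand: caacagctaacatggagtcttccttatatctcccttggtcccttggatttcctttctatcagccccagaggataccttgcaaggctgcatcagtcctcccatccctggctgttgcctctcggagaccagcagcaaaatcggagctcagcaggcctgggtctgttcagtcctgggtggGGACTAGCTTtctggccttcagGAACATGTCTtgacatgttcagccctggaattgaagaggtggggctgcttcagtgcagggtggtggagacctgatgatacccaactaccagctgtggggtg

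Bax, chr7:45466849-45467148, minus strand: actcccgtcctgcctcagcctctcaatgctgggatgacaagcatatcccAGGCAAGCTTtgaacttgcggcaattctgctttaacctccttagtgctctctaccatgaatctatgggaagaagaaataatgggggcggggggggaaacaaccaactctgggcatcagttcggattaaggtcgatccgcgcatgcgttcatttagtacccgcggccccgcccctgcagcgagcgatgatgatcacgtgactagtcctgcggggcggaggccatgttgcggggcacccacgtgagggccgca

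Ccng1, chr11:40755237-40755536, minus strand: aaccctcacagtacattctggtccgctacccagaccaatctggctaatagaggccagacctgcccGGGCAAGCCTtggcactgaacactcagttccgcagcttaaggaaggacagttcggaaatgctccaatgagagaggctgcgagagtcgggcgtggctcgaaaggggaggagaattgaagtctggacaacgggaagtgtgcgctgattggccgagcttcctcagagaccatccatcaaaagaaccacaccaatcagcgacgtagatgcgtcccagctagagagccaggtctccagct

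Mdm2, chr10:117710709-117711008, minus strand: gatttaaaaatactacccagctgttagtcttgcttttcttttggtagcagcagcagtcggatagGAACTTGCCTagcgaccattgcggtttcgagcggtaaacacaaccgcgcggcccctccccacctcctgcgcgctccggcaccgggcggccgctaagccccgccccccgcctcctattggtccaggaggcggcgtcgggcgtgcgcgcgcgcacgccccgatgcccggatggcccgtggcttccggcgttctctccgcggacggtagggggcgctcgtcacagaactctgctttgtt

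Aen, chr7:78895677-78895976, plus strand: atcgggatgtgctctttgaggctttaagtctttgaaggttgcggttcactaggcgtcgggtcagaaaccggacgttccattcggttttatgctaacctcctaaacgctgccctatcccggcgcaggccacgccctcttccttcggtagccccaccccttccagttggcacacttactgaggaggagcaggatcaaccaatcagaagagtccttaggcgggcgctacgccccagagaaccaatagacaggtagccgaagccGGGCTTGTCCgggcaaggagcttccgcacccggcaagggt

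The window at the more upstream start of *Cdkn1a* held a pair, GGACTAGCTT and GAACATGTCT, which began 73 and 51 bases before that start. It is the only pair among the windows of these genes. The *Bax* decamer AGGCAAGCTT began 201 bases before the start, the *Mdm2* decamer GAACTTGCCT 186 bases before and the *Ccng1* decamer GGGCAAGCCT 185 bases before. The *Aen* decamer GGGCTTGTCC began at base 11 of the transcript from the start shown, and 121 bases before its other start. Decamers were thus present in promoters of genes with KO above WT, with KO below WT and with overlapping groups. The 3 windows of *Bbc3*, those of *Phlda3* and *Eda2r* and the other window of *Cdkn1a* held no decamer. A match describes the letters in a window and not binding.

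**Figure D2:**
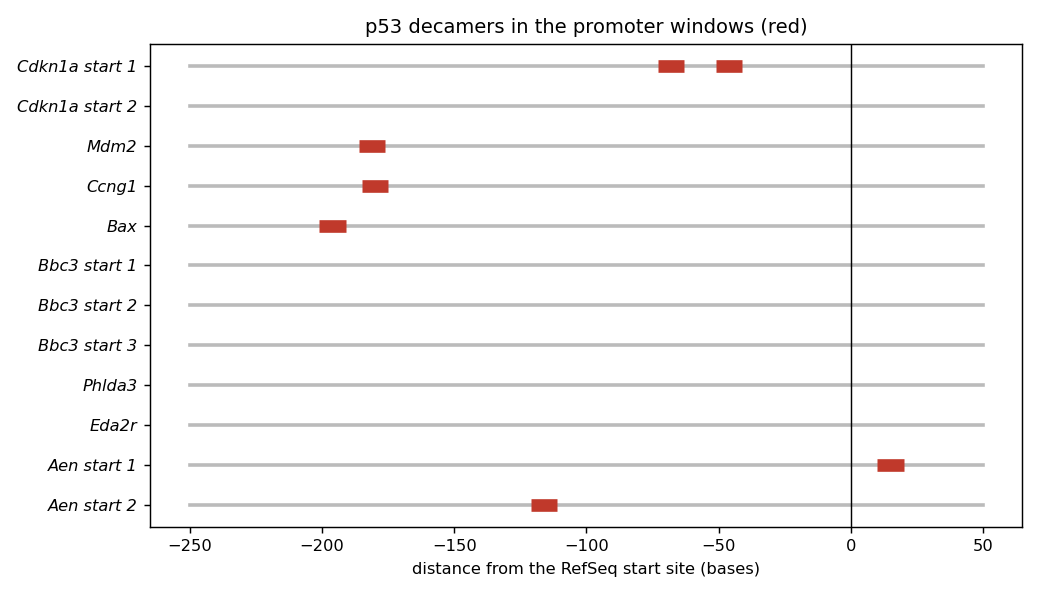
Position of p53 decamers (red) in the 12 promoter windows. The horizontal axis is the distance in bases from the RefSeq transcription start (vertical line), from 250 before to 50 after, and each grey line is a window. *Cdkn1a* start 1 holds 2 decamers, and 5 of 8 genes hold at least 1.

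Among the targets that act on the cell cycle and on p53 itself, *Cdkn1a* rose, and *Mdm2* and *Ccng1* did not pass the test. *Cdkn1a* (ENSMUSG00000023067, chromosome 17 from 29090976 to 29100727, 3 exons) encodes p21, which inhibits cyclin-dependent kinases. Its level was 38.6, 21.2, 20.9 and 25.1 CPM in KO 1 to KO 4 and 14.9, 17.4, 15.7 and 16.0 CPM in WT 1 to WT 4. KO 1 was the highest library, and each of the other mutants was also above each WT. The means were 26.5 ± 8.30 CPM (SD, n = 4) in KO and 16.0 ± 1.05 CPM (SD, n = 4) in WT, a fold of 1.65 (95% interval 1.24 to 2.19, adjusted p = 0.0397). Without KO 1 the fold was smaller, 1.40, and the adjusted p was 0.00641, as the spread within the mutant fell to 2.35 CPM (SD, n = 3). The call was lost when KO 4 (adjusted p = 0.08), WT 1 (adjusted p = 0.12), WT 2 (adjusted p = 0.0802), WT 3 (adjusted p = 0.104) or WT 4 (adjusted p = 0.104) was left out, with log2 fold changes of 0.69 to 0.76.

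*Mdm2* (ENSMUSG00000020184, chromosome 10 from 117688875 to 117710758, 12 exons) encodes the ligase that degrades p53. Its level was 70.9, 52.2, 52.2 and 51.4 CPM in KO 1 to KO 4 and 65.2, 52.7, 56.8 and 59.1 CPM in WT 1 to WT 4. KO 1 was the highest of the 8 libraries, whereas the other 3 mutants were the lowest of the 8. Over all libraries the log2 fold change was -0.05 (95% interval -0.30 to 0.21, adjusted p = 0.844). Without KO 1 it was -0.17 (adjusted p = 0.118), with the 3 mutants below every WT, as in 29.2% of all genes without KO 1 in either direction. The upper end of the 95% interval over all libraries was a 1.15-fold rise.

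*Ccng1* (ENSMUSG00000020326, chromosome 11 from 40748552 to 40755311, 6 exons) encodes cyclin G1, a p53-induced partner of protein phosphatase 2A that feeds back on MDM2. Its level was 104, 106, 99.5 and 106 CPM in KO 1 to KO 4 and 115, 126, 114 and 114 CPM in WT 1 to WT 4. All mutants were below all WT, with KO 1 between the other mutants. The log2 fold change was -0.18 (standard error 0.056, adjusted p = 0.0843), and without KO 1 it was -0.18 with an adjusted p of 0.0467. Within each library, the count of *Cdkn1a* divided by that of *Ccng1* was 0.201 to 0.371 in KO and 0.129 to 0.141 in WT, with every mutant above every WT. This ratio does not depend on the library scaling, its genes were paired after their values were seen, and it was not tested.

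Among the targets that act in apoptosis, *Bax* was the gene with the tightest difference. *Bax* (ENSMUSG00000003873, chromosome 7 from 45461697 to 45466898, 6 exons) encodes a BCL-2 family protein that permeabilizes the outer mitochondrial membrane. Its level was 74.4, 78.5, 83.4 and 78.9 CPM in KO 1 to KO 4 and 62.4, 61.4, 61.7 and 62.9 CPM in WT 1 to WT 4. The WT libraries lay close together and every mutant was above them, KO 1 the least. The means were 78.8 ± 3.68 CPM (SD, n = 4) and 62.1 ± 0.663 CPM (SD, n = 4), a fold of 1.27 (95% interval 1.17 to 1.38, adjusted p = 0.00498). Without KO 1 the fold was 1.29 (adjusted p = 7.1e-04), and leaving out any single library of the 8 gave an adjusted p of at most 0.0259. *Bax* shares 192 exon bases (12.2% of its exon bases) with the annotated gene *Gm45808* on the same strand, to which 0 to 26 counts per library were assigned, against 751 to 1159 for *Bax*.

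*Bbc3* (ENSMUSG00000002083, chromosome 7 from 16308393 to 16318205, 4 exons) encodes PUMA, a BH3-only protein that activates BAX. Its level was 17.4, 7.96, 8.42 and 9.81 CPM in KO 1 to KO 4 and 6.34, 7.02, 4.03 and 5.61 CPM in WT 1 to WT 4. KO 1 was at 1.99 times the mean of the other mutants, and all mutants were above all WT. The fold was 1.88 (95% interval 1.24 to 2.85), and the adjusted p was 0.0653 with KO 1 and 0.0451 without it, where the fold was 1.51. The gene also passed without KO 2 (log2 fold change 1.04, adjusted p = 0.0462) and missed the threshold with any other library left out. The counts behind these values were 49 to 205 per library.

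*Pmaip1* (ENSMUSG00000024521, 3 exons) encodes NOXA, another BH3-only protein. Its level was 3.90, 1.30, 1.51 and 0.989 CPM in KO 1 to KO 4 and 1.07, 1.29, 1.23 and 1.42 CPM in WT 1 to WT 4. KO 1 was 3.08 times the mean of the other mutants, and these overlapped WT. The log2 fold change was 0.60 (95% interval -0.32 to 1.52, adjusted p = 0.405), and without KO 1 it was 0.02 (standard error 0.26, adjusted p = 0.97). The counts behind these values were 12 to 46 per library.

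*Aen* (ENSMUSG00000030609, chromosome 7 from 78895854 to 78911209, 4 exons) encodes an apoptosis-enhancing nuclease. Its level was 53.8, 64.4, 75.1 and 73.2 CPM in KO 1 to KO 4 and 60.0, 65.1, 64.0 and 71.1 CPM in WT 1 to WT 4. KO 1 was the lowest of the 8 libraries, KO 3 and KO 4 the highest, and the groups overlapped. The log2 fold change was 0.03 (95% interval -0.20 to 0.27, adjusted p = 0.874), and 0.12 without KO 1 (adjusted p = 0.268).

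*Trp53inp1*, *Phlda3* and *Eda2r* act in other ways. *Trp53inp1* (ENSMUSG00000028211, chromosome 4 from 11156431 to 11174379, 4 exons) encodes a stress-induced protein that takes part in p53 activation and autophagy. Its level was 12.97, 12.96, 11.80 and 13.60 CPM in KO 1 to KO 4 and 16.96, 15.69, 16.27 and 15.75 CPM in WT 1 to WT 4. All mutants, KO 1 included, were below all WT. The fold was 0.794 (95% interval 0.697 to 0.903, adjusted p = 0.0375), and 0.791 without KO 1 (adjusted p = 0.0249). The call was lost with any other library left out, with adjusted p from 0.0594 (without KO 2) through 0.0625 (KO 4), 0.0728 (WT 2), 0.0857 (WT 4), 0.0921 (KO 3) and 0.0968 (WT 3) to 0.12 (WT 1), while the log2 fold change kept between -0.36 and -0.29.

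*Phlda3* (ENSMUSG00000041801, chromosome 1 from 135766119 to 135769136, 2 exons) encodes a pleckstrin homology protein that competes with AKT for membrane lipids. Its level was 32.3, 37.6, 38.8 and 37.6 CPM in KO 1 to KO 4 and 29.4, 37.8, 28.4 and 28.9 CPM in WT 1 to WT 4. WT 2 was within the range of the mutants and far above the other 3 WT libraries. The log2 fold change was 0.23 (standard error 0.10, adjusted p = 0.195), 0.34 without WT 2 (adjusted p = 0.0506) and 0.29 without KO 1 (adjusted p = 0.0618). *Eda2r* (ENSMUSG00000034457, chromosome X from 97333840 to 97377216, 8 exons) encodes a receptor of the tumor necrosis factor family. It was at 3.69 to 4.95 CPM in KO and 3.70 to 4.73 CPM in WT, with overlapping groups and a difference of 0.04 on the log2 scale (95% interval -0.31 to 0.39, adjusted p = 0.899).

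**Figure D3:**
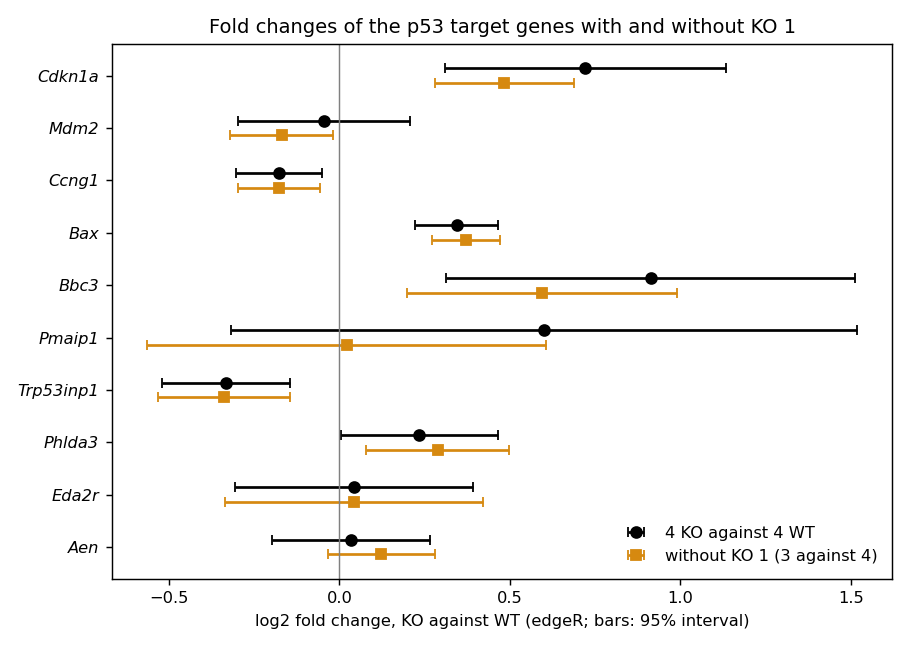
Log2 fold change of each gene in KO against WT (horizontal axis) with all libraries (black circles) and without KO 1 (orange squares), with 95% intervals from edgeR. Without KO 1 the estimate moved from 0.72 to 0.48 for *Cdkn1a*, from 0.91 to 0.60 for *Bbc3* and from 0.60 to 0.02 for *Pmaip1*, and from 0.34 to 0.37 for *Bax*.

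KO 1 set much of the spread among these genes. It was the highest of the 8 libraries for 4 of the 10 genes (*Cdkn1a*, *Mdm2*, *Bbc3* and *Pmaip1*) and the lowest for 1 (*Aen*). Of all genes tested, KO 1 was the highest library in 28.4% and the lowest in 28.1%, so an extreme place of KO 1 was common throughout the transcriptome. *Bax* and *Phlda3* were lowest in KO 1 among the mutants. The genes in which KO 1 exceeded the other mutants most were *Pmaip1*, *Bbc3* and *Cdkn1a*, at 3.08, 1.99 and 1.72 times the mean of the others.

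Per kilobase of the transcript with the longest coding sequence, the WT levels were highest for *Bax*, at 71.6 ± 0.765 CPM per kb (SD, n = 4). *Ccng1* followed at 33.4 ± 1.73, then *Phlda3* at 21.7 ± 3.13 and *Mdm2* at 18.9 ± 1.69 CPM per kb, and *Phlda3* and *Mdm2* did not differ beyond their spread. *Aen* was at 13.1 ± 0.930 and *Cdkn1a* at 7.69 ± 0.504 CPM per kb. *Bbc3* at 3.17 ± 0.708 and *Trp53inp1* at 2.99 ± 0.109 CPM per kb did not differ beyond their spread either, and *Eda2r* (0.868 ± 0.0985) and *Pmaip1* (0.459 ± 0.0532) were the lowest. *Bax* was thus the most abundant of these transcripts per length in WT ventricles by this measure, and in KO its level was 90.9 CPM per kb against 12.7 CPM per kb for *Cdkn1a*. The length taken for *Bax* was 867 bases, while its annotated exons cover 1576 bases, so the size of its lead depends on the transcript taken.

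Across the 8 libraries, log2 CPM of *Cdkn1a* was most like that of *Usp25*, a deubiquitinase (Pearson r = 0.994), *St3gal6*, a sialyltransferase (0.992), *Ksr1*, a scaffold of the RAF-MEK-ERK cascade (0.990), *Aldh9a1*, an aldehyde dehydrogenase (0.988), and *Slc1a4*, a neutral amino acid transporter (0.987), among 11085 genes compared. Of the other p53 targets described here, *Bbc3* came closest (0.939) and *Trp53inp1* was the most opposed (-0.700). Over the 7 libraries without KO 1, *Bax* came closest (0.884), ahead of *Bbc3* (0.838), and *Trp53inp1* was again the most opposed (-0.821). *Mdm2* had a correlation of 0.282 with *Cdkn1a* over 8 libraries and -0.818 over the 7 without KO 1, and *Pmaip1* 0.763 and -0.143. These values describe libraries that share their genotype groups and their depth, and have no p.

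A longer list of p53 targets was read in the same way. Of 30 further targets 27 were tested, and 2 passed, both higher: *Sesn2* and *Pidd1*. This is near the 8.62% of all genes tested that passed. *Sesn2*, a sestrin that restrains mTORC1, was at 38.7, 22.5, 23.1 and 19.1 CPM in KO and 14.1, 13.9, 15.9 and 13.5 CPM in WT, without overlap (log2 fold change 0.85, adjusted p = 0.0285). It is also induced by the integrated stress response. *Pidd1*, which encodes the scaffold that activates caspase-2, was at 23.6, 21.3, 25.5 and 26.5 CPM in KO and 17.9, 19.2, 17.7 and 19.7 CPM in WT (log2 fold change 0.38, adjusted p = 0.0283). Both lost the call when any of the 4 WT libraries was left out (adjusted p from 0.0637 to 0.0882 for *Sesn2* and from 0.0608 to 0.0942 for *Pidd1*), and *Pidd1* also without KO 3 (0.0747) or KO 4 (0.0791). The median log2 fold change of the 27 was 0.14 with KO 1 and 0.03 without it. Without KO 1, 3 were higher and 2 lower, near the 17.2% of all genes. *Fas*, *Gdf15* and *Sfn*, a death receptor, a stress cytokine and a 14-3-3 protein induced by p53, had at most 8 counts in any library and were not tested.

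Of 18 genes for p53 itself and its regulators, 15 were tested and 2 passed, both higher: *Hipk2* and *Rpl11* (all genes: 8.62%, with 5.11% higher). *Trp53*, which encodes p53, was at 94.7, 105, 113 and 113 CPM in KO and 91.7, 101, 95.8 and 99.0 CPM in WT. The groups overlapped through KO 1, and the log2 fold change was 0.14 (standard error 0.069, adjusted p = 0.253), or 0.19 without KO 1 (adjusted p = 0.0304). *Mdm4*, which encodes the partner of MDM2, was at 86.0 to 111 CPM in KO and 80.6 to 101 CPM in WT (log2 fold change 0.04, adjusted p = 0.823). *Hipk2*, a kinase that phosphorylates p53, was at 147, 87.8, 119 and 101 CPM in KO and 61.3, 75.6, 77.1 and 59.9 CPM in WT (log2 fold change 0.73, adjusted p = 0.0193), a call lost without KO 3 (adjusted p = 0.0504), WT 1 (0.0717) or WT 4 (0.0698). *Rpl11*, a ribosomal protein that can bind MDM2, was at 604, 675, 654 and 680 CPM in KO and 488, 411, 489 and 514 CPM in WT (log2 fold change 0.46, adjusted p = 0.00562). The *Rpl11* call held with any single library left out (adjusted p at most 0.0238). Ribosomal protein genes have many processed pseudogenes, so the reads assigned to *Rpl11* are uncertain, and this was not checked.

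The rest of the BCL-2 family, which BAX and the BH3-only proteins act with, was read next. Of 12 further members 11 were tested, and 0 passed in edgeR, with 2 at an unadjusted p under 0.05. DESeq2 called 1 (12.8% of all genes), limma-voom 0 and limma-voom with quality weights 2 (21.2%), against 8.62% of all genes in edgeR. The genes at an unadjusted p under 0.05, *Bcl2* and *Bcl2l1*, both encode inhibitors of BAX, and they differed in direction. These genes and *Bik* are named here after their values were seen. *Bcl2* was at 30.5, 35.7, 34.8 and 31.0 CPM in KO and 39.1, 40.6, 40.7 and 36.97 CPM in WT, without overlap (log2 fold change -0.25, adjusted p = 0.0562, and -0.21 without KO 1, adjusted p = 0.043). *Bcl2l1*, which encodes BCL-XL, was at 71.6, 48.4, 61.6 and 61.1 CPM in KO and 51.9, 51.4, 52.8 and 47.5 CPM in WT, with overlap through KO 2 (log2 fold change 0.25, adjusted p = 0.167, and 0.17 without KO 1, adjusted p = 0.201). Without KO 1, *Bik*, a BH3-only gene, also passed (0.43 on the log2 scale, adjusted p = 0.0234), so that 1 gene was higher and 1 lower, where 17.2% of all genes passed. The count of *Bax* divided by that of *Bcl2* within a library was 2.44, 2.20, 2.39 and 2.55 in KO 1 to KO 4 and 1.60, 1.51, 1.52 and 1.70 in WT 1 to WT 4. The ratio was higher in each mutant than in each WT. Against *Bcl2l1* in place of *Bcl2*, the ratio was 1.04, 1.62, 1.35 and 1.29 in KO and 1.20, 1.20, 1.17 and 1.32 in WT, and the groups overlapped. The separation thus depended on which inhibitor was taken, and neither ratio was tested.

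Of 19 genes for caspases, the apoptosome, their inhibitors and death receptor adaptors, all 19 were tested, 3 rose and 1 fell, where 5.11% of all genes were higher and 3.5% lower. On the log2 scale *Htra2*, a mitochondrial protease that frees caspases from inhibition, differed by 0.29 (adjusted p = 0.0312), *Casp2*, an initiator caspase, 0.24 (adjusted p = 0.0328) and *Ripk1*, a kinase of death receptor signalling, 0.44 (adjusted p = 0.0486). *Cycs*, cytochrome c, was at 146, 170, 161 and 158 CPM in KO and 191, 196, 196 and 213 CPM in WT (log2 fold change -0.32, adjusted p = 0.0127). Over the 8 fits with 1 library left out, *Htra2* lost its call in 7, *Casp2* and *Ripk1* in 6 each, and *Cycs* in 0. The median log2 fold change of the 19 was -0.09, and -0.14 without KO 1. With WT 1, WT 2, WT 3, WT 4, KO 3 or KO 4 left out, 1 of the 19 passed, 4 passed without KO 2 and 6 without KO 1. The shares over all genes in these fits were 3.48% to 5.38%, 9.53% and 17.2%, so 1 of 19 is about the share of its fits.

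p21 acts on cell cycle genes through the DREAM complex, which represses genes of mitosis when p53 is active. Of 14 such genes 2 passed, both higher (all genes: 8.62%, with 5.11% higher), and without KO 1, 4 were higher and 1 lower (all genes: 9.35% and 7.89%). *Aurkb*, a kinase of the chromosomal passenger complex, was at 66.5, 63.8, 71.0 and 73.5 CPM in KO and 55.1, 52.5, 58.2 and 52.7 CPM in WT (log2 fold change 0.33, adjusted p = 0.014). *Aurka*, a spindle kinase, was at 106, 105, 117 and 113 CPM in KO and 92.1, 96.3, 94.5 and 94.7 CPM in WT (log2 fold change 0.22, adjusted p = 0.0358). The median log2 fold change of the 14 was 0.11, and 0.07 without KO 1. Left out singly, WT 1 or WT 4 left 0 of the 14 past the threshold (3 and 4 at an unadjusted p under 0.05), and KO 3, KO 4, WT 2 or WT 3 left 1, in fits that called 3.48% to 5.38% of all genes.

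**Figure D4:**
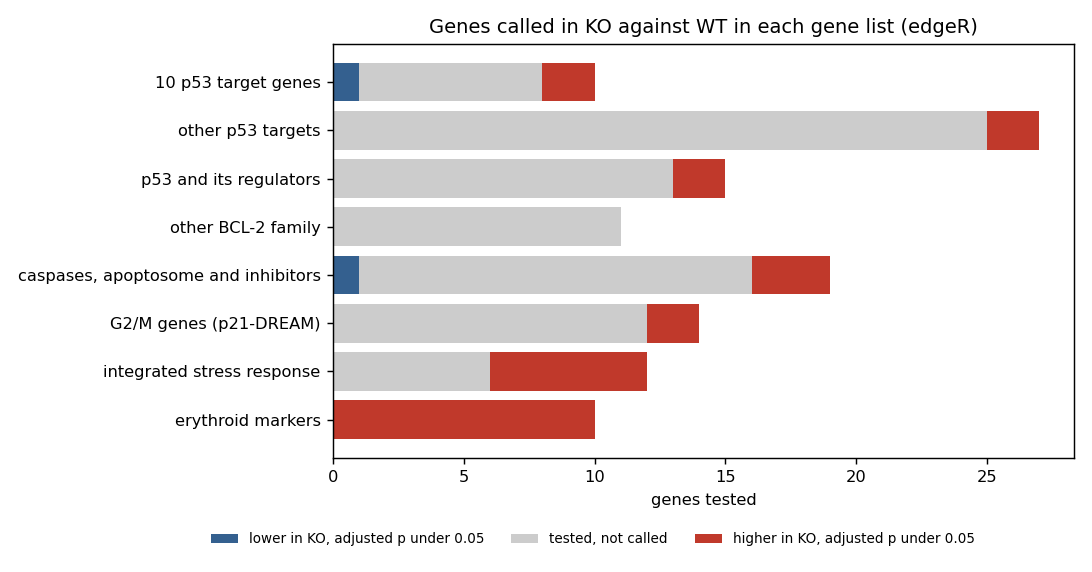
Number of genes tested in each gene list (horizontal axis), split into genes lower in KO (blue), not called (grey) and higher in KO (red) at an adjusted p under 0.05 from edgeR. The 10 p53 target genes hold 2 higher and 1 lower, the integrated stress response list 6 higher of 12, and the erythroid markers 10 higher of 10.

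*Bbc3*, *Pmaip1* and *Sesn2* can also be induced by the integrated stress response, in which the factor ATF4 answers phosphorylation of eIF2alpha. Of 12 genes of that response 6 passed, all higher, where 5.11% of all genes were higher, and without KO 1, 9 passed, all higher, against 9.35% of all genes. *Sesn2* is in this list and in that of the further p53 targets, and is counted in both. *Trib3*, a pseudokinase induced by ATF4, was at 69.7, 23.7, 40.1 and 43.6 CPM in KO and 7.49, 8.88, 7.64 and 6.69 CPM in WT (log2 fold change 2.52, adjusted p = 0.0018). *Asns*, asparagine synthetase, was higher by 1.30 on the same scale (adjusted p = 0.00251), *Phgdh* and *Psat1*, enzymes of serine synthesis, 0.54 (adjusted p = 0.00228) and 0.42 (adjusted p = 0.0077). Summed over the 12 genes the level was 1282, 647, 731 and 726 CPM in KO 1 to KO 4 and 455 to 477 CPM in WT. KO 1, the library with the highest *Cdkn1a*, *Bbc3* and *Pmaip1*, thus also had the highest sum of these genes, though not the highest level of each (*Phgdh* was at 131 CPM in KO 1 and 133 CPM in KO 3), and the part of that response in the p53 target values was not tested. The blood share moved with the genotype, at 1.93% to 6.26% of counts for hemoglobin genes in KO and 0.671% to 0.799% in WT, and its part was not tested either. With hemoglobin and mitochondrial genes removed before normalization, *Cdkn1a* was at 0.73, *Bax* at 0.35 and *Trp53inp1* at -0.32 on the log2 scale and all 3 passed. This step leaves any other RNA of blood cells in the counts.

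Transcript GC content moved with these fold changes as well. Over all genes tested, the median log2 fold change went from -0.08 in the lowest of 10 equal bins of GC content to 0.10 in the highest (Spearman rho = 0.247 across 14434 genes, which are not independent replicates). *Trp53inp1* (38.8% GC), *Ccng1* (40.8%) and *Eda2r* (40.9%) were in the lowest bin, and *Bax* (59.2%), *Phlda3* (62.6%) and *Bbc3* (65.2%) in the highest bin. After a correction for GC content and transcript length, added after seeing the data, *Bax* was at 0.20 (standard error 0.047, adjusted p = 0.0308) and was the 1 gene of the 10 that passed, where 7.53% of all genes did. *Cdkn1a* was at 0.64 (adjusted p = 0.0714), *Trp53inp1* at -0.24 (adjusted p = 0.157), *Ccng1* at -0.11 (adjusted p = 0.378), *Bbc3* at 0.77 (adjusted p = 0.174) and *Phlda3* at 0.06 (adjusted p = 0.687). *Bax* thus kept its call with a smaller difference, and the estimate of *Phlda3* fell the furthest in proportion among the genes with high GC content. Of the genes named from the other lists, *Sesn2* (adjusted p = 0.0719), *Pidd1* (0.0846), *Htra2* (0.0936), *Cycs* (0.097) and *Aurka* (0.0601) also missed the threshold with the correction. The part of GC content in these differences was not tested further.

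**Figure D5:**
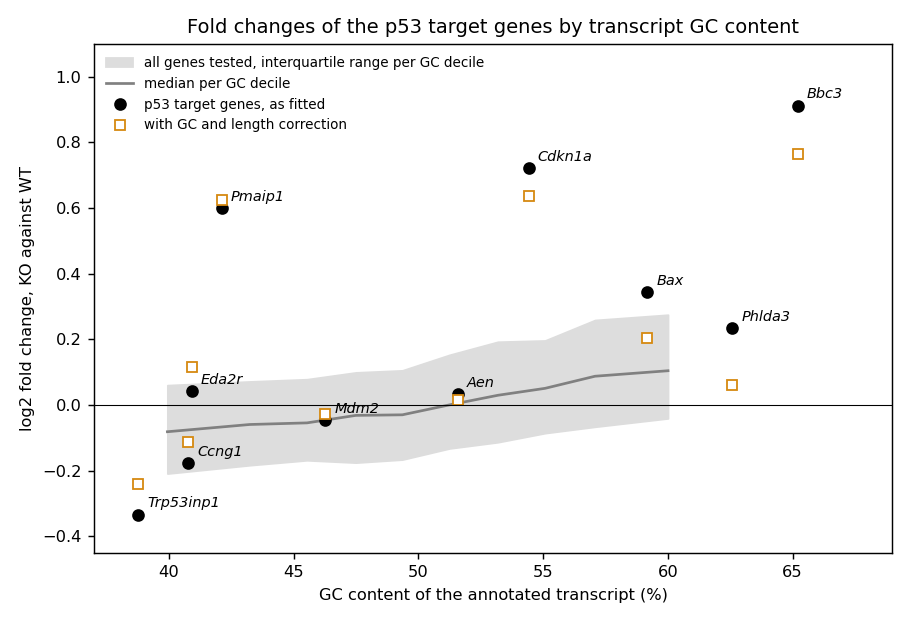
Log2 fold change in KO against WT (vertical axis) by GC content of the annotated transcript in percent (horizontal axis). Circles are the 10 genes as fitted, open squares the same genes with the GC and length correction, and the grey line and band the median and interquartile range of all genes tested in 10 bins of GC content, whose medians run from -0.08 to 0.10.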

How the data were processed

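Polyadenylated RNA of 8 ventricle samples was sequenced as 60-base single reads (median total count per library 13192365.5 in KO and 13251648 in WT). The authors deposited expected counts per gene, and the submitters' processing notes name cutadapt, RSEM 1.3.1 and GRCm38. The aligner and strand setting are not given in the sources used here. The kit, NEBNext Ultra, does not mark strand. Where exons overlap, the assignment of reads is uncertain. *Cdkn1a* overlaps a gene on the opposite strand over 7.68% of its exon bases. That gene is not in the count table, so how many of its reads were counted to *Cdkn1a* is unknown.

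From the deposited expected counts, rounded to whole numbers, genes were kept by filterByExpr, scaled by TMM and tested with edgeR 4.0.16 (quasi-likelihood, KO against WT, R 4.3.3) with p-values adjusted by Benjamini-Hochberg over the 14451 genes and a threshold of 0.05. Intervals are at 95% and come from the fit. Alternatives used DESeq2 1.42.0, limma 3.58.1 (voom), other filters and scalings, a replicate block, removal of hemoglobin and mitochondrial genes, and each library left out in turn. A correction for GC content and transcript length by loess was added after seeing the data. On data simulated from these libraries, the test recovered 74.4% of 86 genes changed by 1 on the log2 scale and 48.6% of 107 genes changed by 0.585, over 14243 genes, with 7 false calls. The simulation gave all libraries the same spread per gene, with no outlying library. It tried no difference as small as that of *Bax* (0.34), so these rates need not hold for this comparison.

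The 10 genes and the gene lists were chosen with earlier results of these data known. Named from each list were up to 4 genes higher and up to 4 lower that passed, by smallest p, plus *Trp53* and *Mdm4*, and the 5 genes most correlated with *Cdkn1a* among those at a mean of at least 5 CPM.

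Gene positions and transcript lengths are from the GENCODE M21 annotation of GRCm38. Promoter sequences are from RefSeq (GRCm38.p6).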

Additional observations from a re-analysis of the deposited data

Results flagged for a closer look

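In 7 of 80 groups of 4 libraries, 1 library lay far from the other 3, that is, its gap to the nearest library exceeded Dixon's 95% critical share of the group's range. Chance gives about 1 in 20, here about 4. KO 1 was that library in 4 of the 7.

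For *Mdm2*, KO 1 lay above the other mutants (gap 0.956 of the range). KO 1 was also apart in the summed level of the other p53 targets (0.98), at 982 CPM against 764 to 768 CPM in KO 2 to KO 4. *Ddit4*, an inhibitor of mTORC1 named here after its values were seen, made up most of that excess, at 196 CPM in KO 1 against 26.6 to 41.7 CPM in the others, and without it the gap was 0.805 of the range, under the critical share. KO 1 was also apart in the integrated stress response (0.868) and in macrophage and leukocyte markers (0.865), at 14.4 CPM against 7.89 to 8.78 CPM. WT 2 was apart from the other WT for *Ccng1* (0.874) and *Phlda3* (0.889). KO 3 was the lowest mutant in endocardial and endothelial markers (0.865), at 703 CPM against 764 to 774 CPM. The cause was not tested.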

How the results depend on the processing

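Of the 10 genes, *Bax* passed in each setting tried except the replicate block with GC and length correction (0.20, adjusted p = 0.102). *Cdkn1a* missed the threshold with limma-voom (0.66, 0.0574), the replicate block (0.68, 0.0853), the GC and length correction (0.64, 0.0714) and both (0.59, 0.123). *Trp53inp1* missed it without a filter (-0.34, 0.0968), with the block (-0.33, 0.119), the correction (-0.24, 0.157) and both (-0.24, 0.251). *Bbc3* passed without a filter (0.91, 0.0335), with DESeq2 (0.92, 0.0126) and with quality weights (0.68, 0.0208). *Ccng1* passed with DESeq2 (-0.17, 0.0403) and quality weights (-0.17, 0.0264), and *Phlda3* with quality weights (0.31, 0.0256). *Mdm4* turned to -0.0237 with quality weights. *Trp53* passed in 1 of 12 alternative settings with all libraries kept, and its log2 fold change ran from 0.054 to 0.205 over them. The causes were not tested.

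Of the 10 genes, limma-voom called 2, 1 higher and 1 lower (*Bax* and *Trp53inp1*, 8.3% of all genes), and DESeq2 called 5, 2 of them lower (12.8% of all genes). Without a filter 3 were higher and 0 lower (4.07% of all genes). Quality weights called 6, 4 higher and 2 lower, among 3062 genes in all (1648 higher, 1414 lower, 21.2%). With the GC and length correction 1 was called, 1 higher and 0 lower (7.53% of all genes). With the replicate block 1 was called, 1 higher and 0 lower, among 616 genes (398 higher, 218 lower, 4.26%). With the block and the correction 0 were called (3 at an unadjusted p under 0.05), among 556 genes (331 higher, 225 lower, 3.85%). The labels name no pairing of the samples. Correlations of same-numbered deviations from the group means were -0.0911 to 0.0187. With so few libraries they cannot show that no pairing or shared batch was present.

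With quality weights, 6 of 27 other p53 targets, 4 of 15 p53 regulators and 2 of 11 other BCL-2 family genes passed. So did 7 of 19 caspase pathway genes and 5 of 14 cell cycle genes, where 21.2% of all genes passed. With the replicate block it was 1 each for other p53 targets, regulators, caspases and cell cycle genes, where 4.26% of all genes passed. With the GC and length correction (7.53% of all genes) it was 0 other targets (8 at an unadjusted p under 0.05) and 1 of the BCL-2 family. With block and correction (3.85% of all genes) it was 0 other targets (5 unadjusted), 1 regulator, 1 caspase pathway gene and 0 cell cycle genes (5 unadjusted). Upper-quartile scaling (8.92% of all genes) and DESeq2 (12.8%) each called 1 of 11 genes of the BCL-2 family. Without a filter 2 of 19 caspase pathway genes passed, where 4.07% of all genes did.

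With each library left out in turn, 509 to 2523 genes were called (335 to 1368 higher, 174 to 1155 lower, 3.48% to 17.2% of all genes). Of the 10 genes 1 to 5 were called (1 to 3 higher, 0 to 2 lower). The ranges were 0 to 5 for other p53 targets, 1 to 3 for regulators, 0 to 2 for the BCL-2 family, 1 to 6 for caspases, 0 to 5 for cell cycle genes and 4 to 9 for the integrated stress response. The log2 fold change ran from 0.48 to 0.82 for *Cdkn1a*, -0.17 to 0.011 for *Mdm2*, -0.19 to -0.14 for *Ccng1*, 0.32 to 0.37 for *Bax*, 0.60 to 1.04 for *Bbc3*, 0.02 to 0.81 for *Pmaip1*, -0.36 to -0.29 for *Trp53inp1*, 0.19 to 0.34 for *Phlda3*, -0.035 to 0.12 for *Eda2r*, -0.0287 to 0.12 for *Aen*, -1.15 to -0.98 for *Nrg1* and -0.0341 to 0.0912 for *Mdm4*, so *Mdm2*, *Eda2r*, *Aen* and *Mdm4* had no stable sign.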
